A study of Mus musculus with 6 samples.

Results

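The genes described here encode the extracellular matrix of the mouse pancreas: the collagens, the laminins and other basement membrane proteins, the proteoglycans and glycoproteins that lie between them, and the enzymes that cross-link or cut them. The rule takes the tested protein-coding genes whose symbol marks a collagen or laminin chain, together with a list of 23 further matrix genes. It uses no measured difference, but it was written with earlier results of these data known. Membership still depends on measured levels, because the deposited table leaves out low genes. Of that list 22 had a row in the deposited table, and Timp1 was not analysed here. The rule gave 50 genes out of 11478 tested genes: 19 collagen chain genes, 8 laminin chain genes, the 22 listed genes and Col4a3bp. Col4a3bp met the rule through its name, but its product transports ceramide and is no matrix protein.

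Pancreas RNA was sequenced from 6 males, all 3 weeks old: 3 were wild type and 3 had the genotype OCaR1-/-, and the labels name no treatment for either group. The labels spell the strain C57Bl6/N in the protocol and C56Bl6/N in the strain field, for both groups alike. OCaR1 is encoded by Tmem63a, which is background knowledge and not in the labels, and the labels do not say how the null allele was made or whether the groups were littermates. The authors' deposited table, from which all FPKM, p and q values below come, holds 1 value per gene and genotype and none for single mice. No spread between mice could therefore be computed, and the depth is unknown. FPKM is a level adjusted for transcript length and library size. A gene is called, or said to rise or fall in the knockout, where its q-value (a p-value adjusted over all tested genes) in the authors' Cuffdiff test was under 0.05. Tmem63a itself stood at 4.91 FPKM in knockout pancreas against 18.3 FPKM in wild-type pancreas, with q = 0.00152 in the authors' deposited table.

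The matrix holds tissue in shape and comes in 2 main forms. Interstitial matrix is built on fibrils of type I, III and V collagen and is made mostly by fibroblasts and, in the pancreas, stellate cells. Basement membranes are thin sheets of laminin and type IV collagen, joined by nidogen and perlecan, that lie beneath acinar and duct epithelium and around blood vessels and to which epithelial and endothelial cells also contribute.

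More matrix genes rose than fell in the knockout pancreas. The authors' deposited table called 17 of the 50 genes higher (34%), with 1 lower (2%), where it called 4.2% of all tested genes higher and 3.35% lower, or 7.54% in either direction. Among tested protein-coding genes the shares were 4.35% higher and 3.57% lower. Most of the calls came from the genes listed by name, of which 13 of 22 were called higher. Of the 27 collagen and laminin chain genes taken by symbol, 4 were called higher and 1 lower. Since the list was chosen with earlier results known, its count is not independent evidence of a direction. The rises were modest in size, from 1.24-fold for Timp3 to 1.79-fold for Mgp, and only 4 of the 17 reached 1.5-fold: Mgp, Fn1, Postn and Tgfbi. With a q threshold of 0.01 in place of 0.05, 11 genes were called higher and 0 lower by Cuffdiff, and 30 of the 50 had an unadjusted p under 0.05. Of all tested genes, 17.5% had such a p, the share against which the counts at that p below are to be read.

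The knockout value was the higher one in 46 of the 50 genes (92.0%), against 44.8% of all tested genes with a fold change. The exceptions were Vcan, Lamb3, Lamb2 and Col7a1. The median log2 fold change, knockout over wild type, was 0.40 over the 50 genes and -0.03 over all tested genes. Because every row of the table has more than 1 FPKM in at least 1 genotype, a low gene can enter it through one group alone; this was so for Col6a5 and Col20a1, which exceeded 1 FPKM only in the knockout, and for 0 of the 50 only in wild type. Genes below that level in both groups were not analysed here.

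Summed over the 50 genes, the level was 1036 FPKM for the knockout and 802 FPKM for wild-type pancreas, or 0.153% and 0.122% of all FPKM in the table. FPKM are shares of a whole, and acinar cell markers took up 53.9% of that whole in the knockout and 59.1% in wild type. The sum over tested protein-coding genes was 611878 (knockout) and 613371 (wild type), and that over all tested genes 674522 and 653025 in the same order. Tested genes that are not protein-coding thus also took up more of the whole in the knockout. Scaling both groups to the sum without the acinar markers lowered every log2 fold change by 0.22. That shift holds both differences, not the acinar one alone, and their parts were not separated. The median of all tested genes then stood at -0.25 and that of the matrix genes at 0.18, with 37 of the 50 still higher in the knockout. Because the shift is equal for every gene, the distance of 0.44 between the medians could not change. In whole tissue, more cells of a type and more RNA per cell cannot be told apart.

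**Figure D1:**
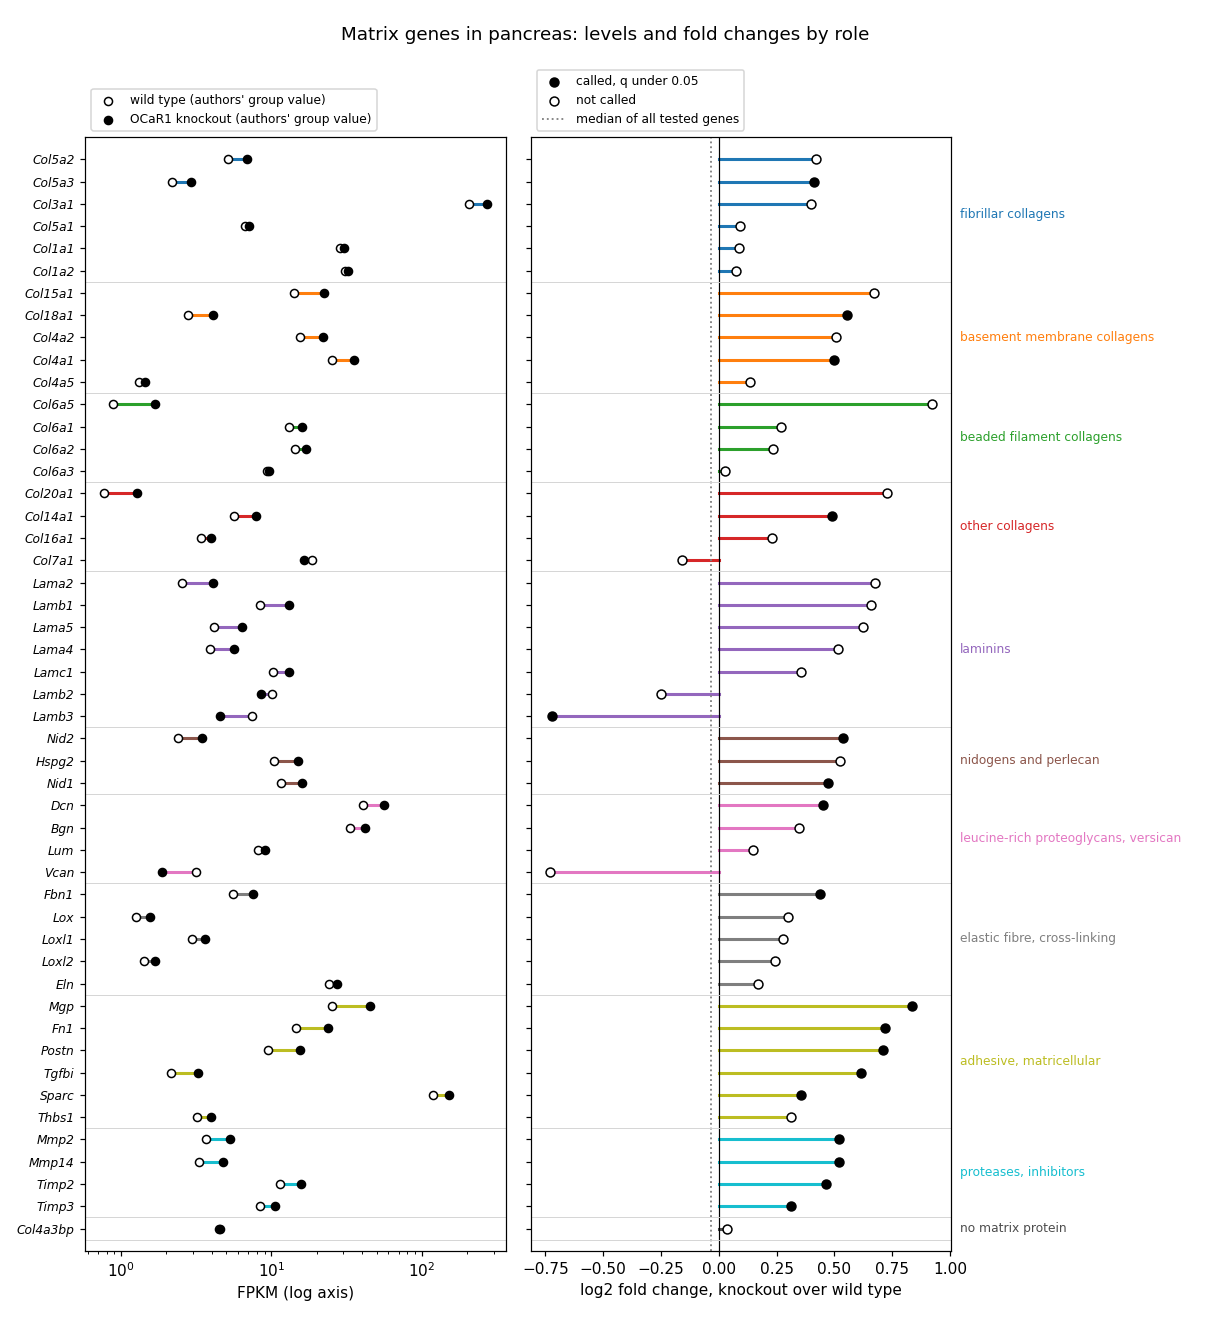
Level in FPKM on a log axis (left, open points wild type, filled points knockout, 1 authors' value per genotype) and log2 fold change (right, filled where q is under 0.05) of 49 of the 50 genes, grouped by role. The right panel shows 45 genes to the right of 0, and among the 4 to the left Lamb3 is the called one.

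Among the fibrillar collagens 1 low chain gene rose, and the 2 chains of type I collagen differed little between genotypes. Col3a1, the single chain of type III collagen, had the highest level of the 50 genes, at 270 FPKM in knockout pancreas against 205 FPKM in wild-type pancreas, without a call (authors' deposited table, q = 0.382). Col1a1 and Col1a2 encode the chains of type I collagen: Col1a1 stood at 30.6 FPKM (knockout) and 28.8 FPKM (wild type), and Col1a2 at 32.5 and 30.9 FPKM in the same order. Their folds were 1.06 and 1.05, and q was 0.766 and 0.827 in the authors' deposited table.

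The level of Col3a1 was 8.82 times that of Col1a1 in the knockout and 7.12 times in wild type, a difference of ratios that cannot be tested without values per mouse. Among the chains of type V collagen, which sits in the core of these fibrils, Col5a3 rose 1.33-fold, from 2.18 to 2.91 FPKM (authors' deposited table, q = 0.0107). Col5a2 was at 6.89 FPKM against 5.16 FPKM in wild type (q = 0.267) and Col5a1 at 7.05 against 6.63 FPKM (q = 0.905), both without a call in the authors' deposited table. Of 6 fibrillar collagen genes, 1 was thus called higher and 0 lower by Cuffdiff, with 2 at an unadjusted p under 0.05. The group's median was 0.24, and 0.02 after scaling without the acinar markers.

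Type VI collagen forms beaded filaments near cell surfaces, and none of its 4 measured chains was called by Cuffdiff, although 3 had an unadjusted p under 0.05. Col6a1 had 15.9 FPKM (knockout) and 13.2 FPKM (wild type), and Col6a2 had 17.0 and 14.4 FPKM, with q = 0.0696 and q = 0.154 in the authors' deposited table. Col6a3, the third chain of the classic trimer, stood at 9.57 and 9.39 FPKM. The largest fold of all 50 genes was that of Col6a5, at 1.68 against 0.885 FPKM, near the table's floor of 1 FPKM and not called (authors' deposited table, q = 0.132). Among the remaining collagens, Col14a1, which binds to the surface of fibrils, rose 1.40-fold from 5.62 to 7.89 FPKM (authors' deposited table, q = 0.00152). Col7a1, the anchoring fibril collagen that ties epithelial basement membranes to the tissue beneath, had 16.6 FPKM against 18.5 FPKM in wild type (q = 0.863). Col16a1 (3.98 and 3.40 FPKM) and Col20a1 (1.28 and 0.772 FPKM) were not called in the same table.

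Basement membrane collagens had a median log2 fold change of 0.51. Col4a1 and Col4a2 encode the chains of the common type IV collagen network. Col4a1 rose 1.41-fold, from 25.2 to 35.6 FPKM (authors' deposited table, q = 0.00404). Col4a2 had 21.9 FPKM against 15.4 FPKM, a 1.42-fold difference that missed the threshold (q = 0.0679). The chain ratio, Col4a1 over Col4a2, was 1.63 in the knockout and 1.64 in wild type, nearly equal in both groups. This is not particular to the pair: Col1a1 over Col1a2, genes on chromosomes 11 and 6, was 0.940 in the knockout and 0.930 in wild type. Col18a1, whose product carries the endostatin domain, rose 1.47-fold from 2.79 to 4.10 FPKM (authors' deposited table, q = 0.0280). Its relative Col15a1 stood at 22.5 FPKM against 14.1 FPKM in wild type, a larger fold (1.59) without a call (q = 0.226). Col4a5 had 1.44 and 1.31 FPKM. Of these 5 genes, 2 were called higher in the authors' deposited table but 0 lower, and 4 had an unadjusted p under 0.05.

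Both genes of the linker proteins called nidogens rose. Nidogens bind laminin to type IV collagen. Nid1 (chr13:13437602-13512275) rose 1.39-fold from 11.6 to 16.0 FPKM (authors' deposited table, q = 0.00152), and Nid2 rose 1.45-fold from 2.39 to 3.46 FPKM (q = 0.0256). Hspg2, the gene of the heparan sulfate proteoglycan perlecan, had 14.9 FPKM against 10.4 FPKM in wild type, a 1.44-fold difference without a call (authors' deposited table, q = 0.314). Nid1, Nid2 and Hspg2 were listed by name with earlier results known, so their calls are not independent evidence of a direction.

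No laminin gene was called higher and 1, Lamb3, was called lower. Laminins are trimers of an alpha, a beta and a gamma chain. Lamb1, a widely used beta chain, had 13.2 FPKM against 8.33 FPKM in wild type (1.58-fold, authors' deposited table, q = 0.158), and Lamc1, the common gamma chain, had 13.1 against 10.2 FPKM (1.28-fold, q = 0.396). The alpha chain genes Lama2 (1.60-fold), Lama5 (1.54-fold) and Lama4 (1.43-fold) were likewise at higher values without a call, between 4.06 and 6.41 FPKM in the knockout. Lamb2 had 8.49 FPKM against 10.1 FPKM in wild type (authors' deposited table, q = 0.890).

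Lamb3, the beta chain of the laminin that anchors epithelial cells, was the single matrix gene called lower. It fell 1.65-fold, from 7.48 to 4.54 FPKM (authors' deposited table, q = 0.0139). The interval that the table gives for Lamb3 (GRCm38 chr1:193203038-193343878) also holds G0s2 and Hsd11b1, so that 3 rows share 1 interval, and without genes that share an interval 0 matrix genes were called lower by Cuffdiff. Lamb3 is also the matrix gene nearest to the targeted locus, 12.2 Mb from Tmem63a on chromosome 1, and whether sequence linked to the null allele differs between the groups was not tested. Of the 8 laminin genes, 0 were called higher and 1 lower by Cuffdiff, and 3 had an unadjusted p under 0.05. The ratio of Lamb1 to Lamb2 was 1.55 in the knockout and 0.825 in wild type. Neither gene was called, and this difference of ratios cannot be tested without values per mouse.

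The start regions of 5 of these genes are printed to show what the annotation places at the point where transcription begins: the neighbouring Col4a1 and Col4a2, then Postn and Nid1, which rose, and Lamb3, which fell. Each runs 5′ to 3′ on its gene's strand over 300 bases, 250 before the annotated first base and 50 from it on, and comes from RefSeq on GRCm38.p6. Capitals mark every match, on either strand, to the TATA box (TATAAA), the CCAAT box (CCAAT), the GC box (GGGCGG) or the AP-1 motif (TGANTCA). They lie at chr8:11312777-11313076 (minus strand) for Col4a1, chr8:11312555-11312854 (plus strand) for Col4a2, chr3:54360857-54361156 (plus strand) for Postn, chr13:13437352-13437651 (plus strand) for Nid1 and chr1:193301744-193302043 (plus strand) for Lamb3.
Col4a1: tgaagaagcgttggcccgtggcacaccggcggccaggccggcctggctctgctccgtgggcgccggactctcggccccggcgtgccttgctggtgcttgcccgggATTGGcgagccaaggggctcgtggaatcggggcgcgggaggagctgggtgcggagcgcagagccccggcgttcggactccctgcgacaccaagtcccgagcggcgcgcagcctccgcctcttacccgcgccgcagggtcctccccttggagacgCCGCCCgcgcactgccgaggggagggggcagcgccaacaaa
Col4a2: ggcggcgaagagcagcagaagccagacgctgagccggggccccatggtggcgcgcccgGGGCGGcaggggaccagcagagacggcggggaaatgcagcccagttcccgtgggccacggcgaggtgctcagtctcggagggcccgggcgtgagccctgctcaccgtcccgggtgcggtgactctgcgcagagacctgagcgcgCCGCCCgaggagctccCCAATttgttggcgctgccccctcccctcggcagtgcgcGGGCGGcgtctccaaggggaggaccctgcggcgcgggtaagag
Postn: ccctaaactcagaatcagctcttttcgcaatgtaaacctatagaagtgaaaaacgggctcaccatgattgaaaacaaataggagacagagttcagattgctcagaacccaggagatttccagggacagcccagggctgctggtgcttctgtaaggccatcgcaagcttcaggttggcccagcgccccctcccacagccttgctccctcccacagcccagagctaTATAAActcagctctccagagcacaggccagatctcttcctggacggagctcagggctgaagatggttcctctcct
Nid1: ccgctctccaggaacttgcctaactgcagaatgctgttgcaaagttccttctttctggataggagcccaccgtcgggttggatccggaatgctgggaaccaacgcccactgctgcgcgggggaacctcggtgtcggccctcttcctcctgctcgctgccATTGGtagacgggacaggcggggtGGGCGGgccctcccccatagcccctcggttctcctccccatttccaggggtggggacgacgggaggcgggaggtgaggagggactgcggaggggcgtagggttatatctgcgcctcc
Lamb3: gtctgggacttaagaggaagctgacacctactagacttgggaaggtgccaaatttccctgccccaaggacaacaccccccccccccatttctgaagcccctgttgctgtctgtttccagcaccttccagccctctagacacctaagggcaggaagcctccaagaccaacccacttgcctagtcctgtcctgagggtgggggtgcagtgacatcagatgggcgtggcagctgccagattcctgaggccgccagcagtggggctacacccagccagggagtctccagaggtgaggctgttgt
Col4a1 and Col4a2 start head to head: their windows have 78 bases in common, read on opposite strands, and their annotated first exons overlap by 22 bases. The shared bases hold the GC box that begins at position 9 of Col4a1 and position 7 of Col4a2, and the CCAAT boxes of both windows begin outside them, at -145 and -32. Positions count from 0 at the annotated first base. The Postn window, 1 of 2 listed for this gene, has a TATA box at -26 and no GC box. Nid1 has a CCAAT box at -91 and a GC box at -67. The Lamb3 window, 1 of 2 that the table lists for this gene, holds none of the 4 motifs. A window was found for 32 of the 50 genes. A GC box occurred in 66.7% of their 36 windows and in 35.6% of the 32817 windows of all genes, while the median GC content was 60.2% and 52.7%. A CCAAT box occurred in 38.9% and 37.4%, a TATA box in 5.56% and 13.6%, and an AP-1 motif in 2.78% and 7.81%. These are matches of letters within the windows and are given as a description.

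Adhesive and matricellular glycoproteins, which connect cells to the matrix or modulate that contact, held the largest called rises. Intervals are those of the table, on GRCm38. Mgp (chr6:136872436-136875805), an inhibitor of matrix calcification, rose from 25.3 to 45.1 FPKM (1.79-fold, authors' deposited table, q = 0.00152). Fn1 (chr1:71585520-71662843), the fibronectin gene, rose from 14.5 to 23.9 FPKM (1.65-fold, q = 0.00628). Postn (chr3:54361109-54391034) encodes periostin, a fibroblast product that binds collagen, and rose from 9.47 to 15.5 FPKM (1.63-fold, authors' deposited table, q = 0.00152). These 3 genes and Tgfbi, which encodes a collagen-binding protein induced by TGF-beta (from 2.14 to 3.27 FPKM, 1.53-fold), were those that passed 1.5-fold.

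Sparc, a collagen-binding glycoprotein and the second most abundant of the 50 genes, rose from 119 to 153 FPKM (1.28-fold, authors' deposited table, q = 0.0324). Col3a1 and Sparc together made up 40.8% of the matrix FPKM in the knockout and 40.4% in wild type. Thbs1, a thrombospondin gene whose interval Gm29233 shares, had 3.96 against 3.19 FPKM and just missed the threshold (authors' deposited table, q = 0.0612). In this group the authors' deposited table has 5 of 6 genes as higher, 0 as lower, and all 6 had an unadjusted p under 0.05. Over all tested genes, 4.2% were called higher. All 6 were listed by name with earlier results known, so their count is not independent evidence of a direction.

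Of 4 proteoglycan genes, 1 was called higher and 0 lower by Cuffdiff, and 2 had an unadjusted p under 0.05. Dcn, the gene of decorin, which coats collagen fibrils, rose from 40.8 to 55.8 FPKM (1.37-fold, authors' deposited table, q = 0.00152). Bgn, which encodes the related biglycan, had 42.2 against 33.1 FPKM (q = 0.262), and Lum, the lumican gene 47.0 kb from Dcn, had 9.08 against 8.19 FPKM (q = 0.578). Vcan encodes versican, a large hyaluronan-binding proteoglycan. It had the lowest log2 fold change of the 50 genes, -0.73, at 1.88 FPKM against 3.13 FPKM in wild type, without a call (authors' deposited table, q = 0.717) and in an interval that 3 other rows share.

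Of 5 genes of elastic fibres and cross-linking, Cuffdiff called 1 higher but 0 lower, with 3 at an unadjusted p under 0.05. Fbn1, which encodes the fibrillin of microfibrils, rose 1.35-fold from 5.55 to 7.52 FPKM (authors' deposited table, q = 0.00283). Eln, the elastin gene, had 27.1 against 24.2 FPKM (q = 0.396). The lysyl oxidase genes, whose enzymes cross-link collagen and elastin, were not called: Lox was at 1.55 and 1.26 FPKM, Loxl1 at 3.60 and 2.97 FPKM and Loxl2 at 1.68 and 1.42 FPKM, knockout first.

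All 4 protease and inhibitor genes among the 50 rose, where 4.2% of all tested genes were called higher. They too were listed by name with earlier results known, so their count is not independent evidence of a direction. Mmp2, a gelatinase, went from 3.67 to 5.27 FPKM and Mmp14, the membrane protease that activates it, from 3.31 to 4.75 FPKM, each a 1.44-fold rise (q = 0.00152 for both in the authors' deposited table). Timp2, an inhibitor that also takes part in that activation, rose 1.38-fold from 11.3 to 15.6 FPKM (q = 0.0256). Timp3, an inhibitor that stays bound to the matrix, rose 1.24-fold from 8.44 to 10.5 FPKM (authors' deposited table, q = 0.0447). The level of Mmp2 relative to Timp2 was 0.338 in the knockout and 0.324 in wild type.

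**Figure D2:**
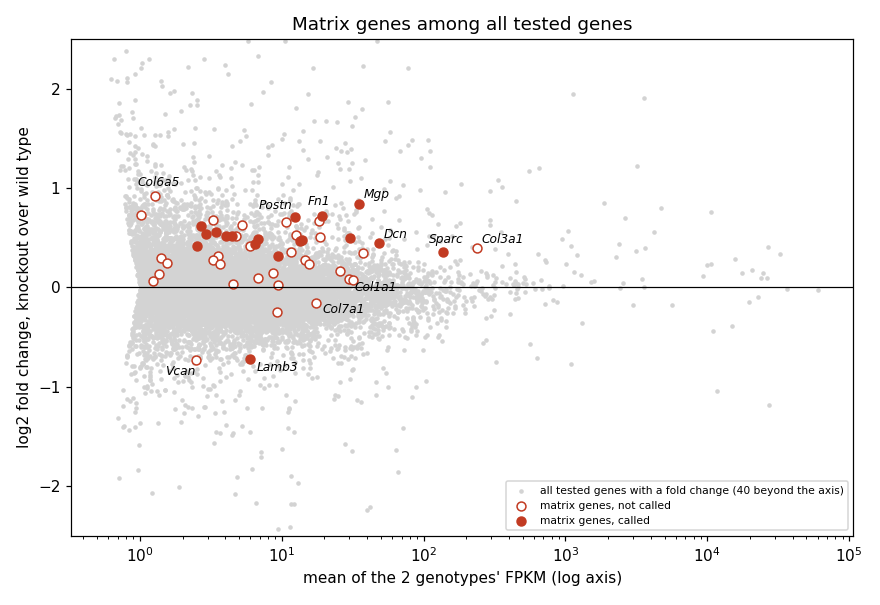
Log2 fold change, knockout over wild type, against the mean FPKM of the 2 genotypes (log axis) for tested genes with a fold change (grey, 40 beyond the axis) and for the 50 matrix genes (red, filled where called). Mgp is the highest filled point at 0.84, Lamb3 the filled point below 0 at -0.72, and Col3a1 the most abundant, open, at 0.40.

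Several of the larger differences were not called. Of the 17 matrix genes whose log2 fold change exceeded 0.5, 8 were called in the authors' deposited table (47.1%), compared with 51.0% of the 667 tested protein-coding genes and 40.9% of the 887 tested genes of any kind with such a difference. The 9 without a call were Col6a5, Col20a1, Lama2, Col15a1, Lamb1, Lama5, Hspg2, Lama4 and Col4a2, named because they make up this count. Called and uncalled genes had similar median levels, 8.11 and 7.74 FPKM. The smallest p in the table, 5e-05, is shared by 394 genes, of which 8 are among the 50, so these cannot be ranked by p. Of the 18 called genes, 4 share their interval with another row (Col18a1, Col4a1, Nid2 and Lamb3), and 6 have exonic bases that GENCODE M21 also assigns to another gene. Those overlaps measure 2442 bases for Fbn1 (Gm9913), 1733 for Timp3 (Syn3), 437 for Nid2 (Rtraf), 292 for Fn1 (Apol7d), 143 for Nid1 (Gm48682) and 22 for Col4a1 (Col4a2), each on the opposite strand. Since the use of strand is not given in the sources used here, reads of these partners cannot be told apart.

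Matrix genes that lie within 500 kb of each other in the genome had similar fold changes in some pairs and not in others. Only a part of these pairs is given. Col3a1 and Col5a2, 24.6 kb apart on chromosome 1, had log2 fold changes of 0.40 and 0.42. Col6a1 and Col6a2, 85.2 kb apart on chromosome 10, had 0.27 and 0.24. Dcn and Lum had 0.45 and 0.15, and Col18a1 and Col6a1, 326 kb apart on chromosome 10, had 0.55 and 0.27. Col7a1 and Lamb2, 463 kb apart on chromosome 9, were both below 0, at -0.16 and -0.25. Whether neighbours are closer to each other than other genes was not tested.

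Outside these 50 genes, calls in further matrix lists were counted in the same way. These lists were also chosen with earlier results of these data known, so their counts are not independent evidence of a direction. Over all tested genes, 4.2% were called higher and 3.35% lower, the shares against which these counts are to be read. Of 42 further structural matrix genes, 10 were called higher in the authors' deposited table but 0 lower, with 15 at an unadjusted p under 0.05 and a median log2 fold change of 0.25. They included Nov, a matricellular growth regulator (from 0.737 to 1.41 FPKM), Efemp1, a fibulin gene (from 5.23 to 9.18 FPKM), and Sparcl1, a relative of Sparc (from 9.96 to 15.3 FPKM). Of the 10, Nov and Fmod passed the table's floor of 1 FPKM only through the knockout, where they are high, so they had to differ to be listed. Of 18 further proteases and inhibitors, 6 were called higher in the authors' deposited table and 0 lower (11 with an unadjusted p under 0.05). Mmp19, whose interval another row shares, rose from 0.662 to 1.80 FPKM, the urokinase gene Plau from 1.90 to 3.16 FPKM and Adamts5, an aggrecan-cutting protease gene, from 0.736 to 1.09 FPKM. Mmp19, Adamts5 and Adamts15, 3 of these 6, were likewise above 1 FPKM only in the knockout.

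Of 23 genes for collagen synthesis and processing, Cuffdiff called 1 higher but 0 lower, and 6 had an unadjusted p under 0.05. The share called higher was close to the 4.2% of all tested genes. The median was 0.10, and -0.12 after scaling without the acinar markers. The called gene was Bmp1, whose enzyme trims procollagen (from 2.45 to 3.28 FPKM, authors' deposited table, q = 0.0124). Serpinh1, the collagen chaperone gene, had 32.2 against 27.3 FPKM (q = 0.135), and Mia2, a gene of collagen export from the endoplasmic reticulum, 2.82 against 3.61 FPKM (q = 0.164). Several enzymes of this list also serve secretory proteins other than collagen.

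Among 23 matrix receptor genes, 2 were called higher in the authors' deposited table and 0 lower, with 6 at an unadjusted p under 0.05: the hyaluronan receptor gene Cd44 (from 1.44 to 2.56 FPKM) and the glypican gene Gpc3 (from 6.82 to 9.71 FPKM). Sdc3, a syndecan gene, had 3.28 against 1.93 FPKM (q = 0.0570). The median was 0.18, and -0.04 after scaling without the acinar markers. In the TGF-beta pathway, a main inducer of matrix genes, the receptor genes Tgfbr2 (from 2.81 to 4.11 FPKM) and Tgfbr3 (from 1.64 to 2.25 FPKM) rose, which were the 2 calls among 19 genes. None of the 19 was called lower by Cuffdiff, and 4 had an unadjusted p under 0.05, a share near the 17.5% of all tested genes. The signal transducer gene Smad3 had 3.25 against 5.27 FPKM (authors' deposited table, q = 0.204), and the median was 0.04, or -0.18 after that scaling.

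**Figure D3:**
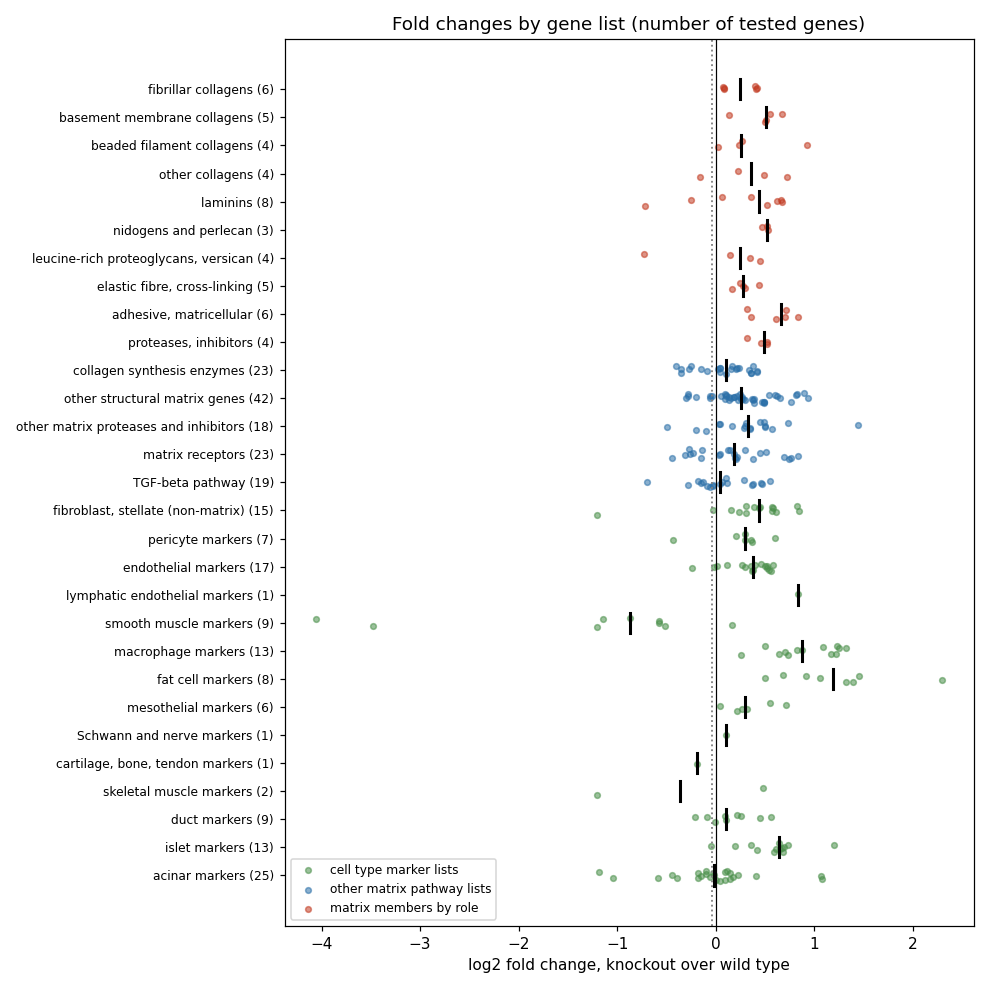
Log2 fold changes, knockout over wild type, of single genes (points) with the list median (black bar) for the matrix genes by role (red), further matrix pathway lists (blue) and cell type marker lists (green), with the number of tested genes in brackets; the dotted line is the median of all tested genes. Every red median lies above 0 on the authors' scale, and the smooth muscle median is at -0.87.

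Markers of fibroblasts and stellate cells and of endothelium mostly had higher values in the knockout. The marker lists here and below were chosen with earlier results of these data known, so their counts are not independent evidence. Smooth muscle markers, given below, were mostly lower. Fibroblast and stellate cell markers outside the matrix had a median log2 fold change of 0.44, with 7 of 15 called higher in the authors' deposited table and 1 lower. Of these 7, Meox1 was above 1 FPKM only in the knockout. The summed level of the 15 markers was 138 FPKM against 99.9 FPKM in wild-type pancreas. The largest part of that sum was Vim, a mesenchymal filament gene, which rose from 46.5 to 69.7 FPKM, and the called fall was Des, a muscle filament gene found also in stellate cells (from 3.92 to 1.70 FPKM). The summed fold of this list was 1.38 and that of the 50 matrix genes 1.29. Endothelial markers had a median of 0.38, with 6 of 17 called higher and 0 lower (11 with an unadjusted p under 0.05 in the same Cuffdiff table) and a summed level of 132 against 103 FPKM. Cdh5, the endothelial cadherin gene, rose from 5.58 to 8.36 FPKM, and Emcn from 5.31 to 7.63 FPKM. After scaling without the acinar markers, the fibroblast and stellate median was 0.22 and the endothelial median 0.16. The part of these cells in the matrix result was not tested.

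Other cell types of the sample also differed, in both directions. Fat cell markers had 7 of 8 called higher in the authors' deposited table (median 1.19, summed level 196 against 88.2 FPKM), among them Retn, which was above 1 FPKM only in the knockout, and Cfd. Macrophage markers had 11 of 13 called higher (median 0.87, summed level 130 against 73.0 FPKM), among them Lyz2 and Mpeg1; 3 of the 11, Mpeg1 included, were above 1 FPKM only in the knockout. Islet markers had 10 of 13 called higher (median 0.64, summed level 4124 against 2571 FPKM), and the 1 lymphatic endothelial marker tested, Lyve1, rose from 2.95 to 5.27 FPKM. Smooth muscle markers, in contrast, had 6 of 9 called lower and 0 higher by Cuffdiff, 8 with an unadjusted p under 0.05 (median -0.87, summed level 53.2 against 99.8 FPKM), led by Actg2 and Cnn1, which were above 1 FPKM only in wild type. The part of these cell types in the matrix result was not tested. Pericyte markers had 1 of 7 called, Rgs5, higher (median 0.30, summed level 82.3 against 99.1 FPKM), and mesothelial markers 2 of 6, Upk1b and Lrrn4, both higher (median 0.29). Of 25 acinar markers, 2 were called higher and 4 lower (median -0.02). Duct markers had 1 of 9 called, Sox9, higher (median 0.10, and -0.12 after scaling without the acinar markers). Over all tested genes, 4.2% were called higher and 3.35% lower by Cuffdiff.

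For 3 further tissues few markers had a row, in a table that leaves out genes under 1 FPKM in both groups. Of 14 cartilage, bone and tendon symbols 1, Sox6, had a row outside the 50 genes, with a log2 fold change of -0.19, and Acan and Col2a1 had none. Of 13 skeletal muscle symbols, 2 had a row: Des, which was called lower as given above, and Mylpf, at 2.69 and 1.93 FPKM without a call. Of 10 Schwann cell and nerve symbols, 1 had a row (Uchl1, at 1.12 and 1.04 FPKM). Neither Sox6 nor Uchl1 was called by Cuffdiff, with 0 of these 2 at an unadjusted p under 0.05.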

How the data were processed

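The submitters' processing notes name the aligner STAR (version 2.5.1b), Cufflinks (version 2.2.1) with Cuffdiff, and build GRCm38. The authors deposited 1 gene table with 1 FPKM value per genotype and, per the file headers, a p-value and a q-value for the difference. No source used here gives the annotation, the use of strand, the scaling or how single mice were combined. The table has 12016 rows, of which 11478 were tested, and 0 columns of single samples.

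Fold changes across all genes were recomputed from the deposited FPKM (knockout over wild type, no pseudocount). A value under 0.01 FPKM counted as listed at 0 and gave no fold. Calls are the authors' (q under 0.05) and no test was added. Starts were shifted to count from 1, and all 50 identifiers were found in GENCODE M21 (GRCm38). Members, 10 role groups, 5 pathway lists and 14 cell marker lists were chosen with earlier results of these data known. List counts outside the members leave the members out. Genes named are the called members, in each role group the 2 most abundant and the 1 with the largest fold among those not called, up to 3 genes of each pathway list and up to 2 of each marker list with the smallest p, and Tmem63a. Other members, and genes that make up a small count such as Sox9 and Des, were named after their values were seen. The values of 1 member are not reported here singly, but it stays in the counts and medians. Alternatives covered the q threshold, filters, pseudocounts and scaling. Simulated data were used to check the adjustment of p-values that served in an alternative. Recovery of simulated fold changes was fixed by construction, so the fold, count and scaling steps were not tested that way. Python 3.11.15 with pandas 2.3.3, numpy 2.4.6 and matplotlib 3.10.9 was used.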

Additional observations from a re-analysis of the deposited data

How the results depend on the processing

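The count of matrix genes called higher (17) fell to 11 with a q threshold of 0.01 and to 4 with a minimum of 1.5-fold. It fell to 11 among genes with a mean of at least 5 FPKM, an alternative chosen after seeing the data. A stricter condition can only lower the count. Sparc, Col18a1, Col5a3, Timp2, Timp3 and Nid2 lost their calls at the q threshold of 0.01. The count was between 12 and 20 under the other alternatives run. The 1 gene called lower, Lamb3, was lost with a q threshold of 0.01 (0 called by Cuffdiff) and among genes with an interval of their own (0). The median log2 fold change of 0.40 moved to 0.18 after scaling to the sum without acinar markers, which shifts every gene equally, and was between 0.36 and 0.44 under the others. Fold changes of the 18 called genes and the medians of the 10 role groups kept their sign after that scaling. The fibrillar, beaded filament and proteoglycan medians were then 0.02, 0.03 and 0.03. Lamb3, already below 0, could not change sign under a scaling that lowers every gene. These signs also stayed with a pseudocount of 0.5 FPKM, but adding 1 constant to both values cannot change the sign of a gene. Each mouse could not be left out in turn. No paired analysis was possible because the table holds 1 combined value per genotype. Depth is unknown, so no counting interval is given.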
